A study of Rattus norvegicus with 22 samples.

Results

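Motor neuron identity and subtype genes were followed in the ventral cervical spinal cord of rats with and without gonads. The set held 10 genes (Isl1, Isl2, Mnx1, Pou3f1, Esrrg, Prph, Mmp9, Chodl, Calca and Calcb), chosen by name and found by their symbols among the 32883 genes of the count table. The question put to them was whether removal of the testes or the ovaries went with a change in the transcripts that mark motor neurons and their subtypes. Tissue came from 22 Sprague-Dawley rats aged 3 to 4 months, perfused with saline, and consisted of the ventral part of segments C3 to C6, where the phrenic motor neurons lie. The 4 groups were intact males (5 rats), males 2 weeks after removal of both testes (GDX, 5 rats), intact females (6 rats) and females 2 weeks after removal of both ovaries (OVX, 6 rats). Each library came from a separate, numbered rat, and the intact rats were age-matched. No sham operation of the intact rats is mentioned in the sources used here, so surgery and loss of the gonads cannot be told apart.

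Total counts ran from 12371756 to 17571887 per rat. The libraries fell into 2 classes by the size of their input fragments, given per library by the study and called the shorter and the longer fragment class here. All 11 rats without gonads were in the shorter class. Of the intact rats, 2 of 5 males (rats 2 and 5) and 2 of 6 females (rats 1 and 4) were in the shorter class and the other 7 in the longer class. Both classes therefore occurred only among intact rats, and surgery and class were partly confounded. Levels are given as CPM, the usual counts scaled by the size of each library, with TMM factors over all 22 rats. Fold changes are on the log2 scale with their standard error (SE), and a gene was called when the adjusted p of edgeR's quasi-likelihood test, with Benjamini-Hochberg adjustment over all genes tested, was under 0.1.

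Spinal motor neurons arise from progenitors that switch on homeodomain factors of the Isl and Mnx families, and these factors keep the cholinergic fate in place. Adult motor neurons differ by target: alpha motor neurons drive the force-producing muscle fibres and are divided into fast and slow types, whereas gamma motor neurons set the sensitivity of muscle spindles. Many motor neurons also make calcitonin gene-related peptide (CGRP), which they release at the neuromuscular junction. A bulk piece of cord holds these cells among glia, interneurons and vessels, so fewer motor neurons and less RNA per motor neuron cannot be told apart.

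Of the 10 genes, 9 passed the filter on low counts in each comparison and Mmp9 did not. In GDX against intact males 1 of the 9 genes was called (Esrrg), against 13.4% of the 14931 genes tested. In OVX against intact females none of the 9 was called, against 0.0335% (5 of 14910 genes). There 3 of the 9 (Isl1, Prph and Chodl) had an unadjusted p under 0.05 in edgeR, as had 1516 genes in all, and DESeq2, which called 174 genes, called none of the 9 either. In intact males against intact females 1 of the 9 was called, again Esrrg, against 4.01% of the 14937 genes tested. The intact males enter both comparisons in which Esrrg was called, so these calls share 5 rats.

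The median log2 fold change of the 9 genes was -0.12 in GDX against intact males, -0.24 in OVX against intact females and -0.15 in intact males against intact females. Over all genes tested the medians were 0.0021, 0.0025 and 0.0028. Log2 fold changes below 0 were found for 8 of the 9 genes after GDX and 7 of 9 after OVX. With fragment class as a term these counts were 4 of 9 and 5 of 9, and the median after GDX turned to 0.06, while after OVX it was -0.12.

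**Figure D1:**
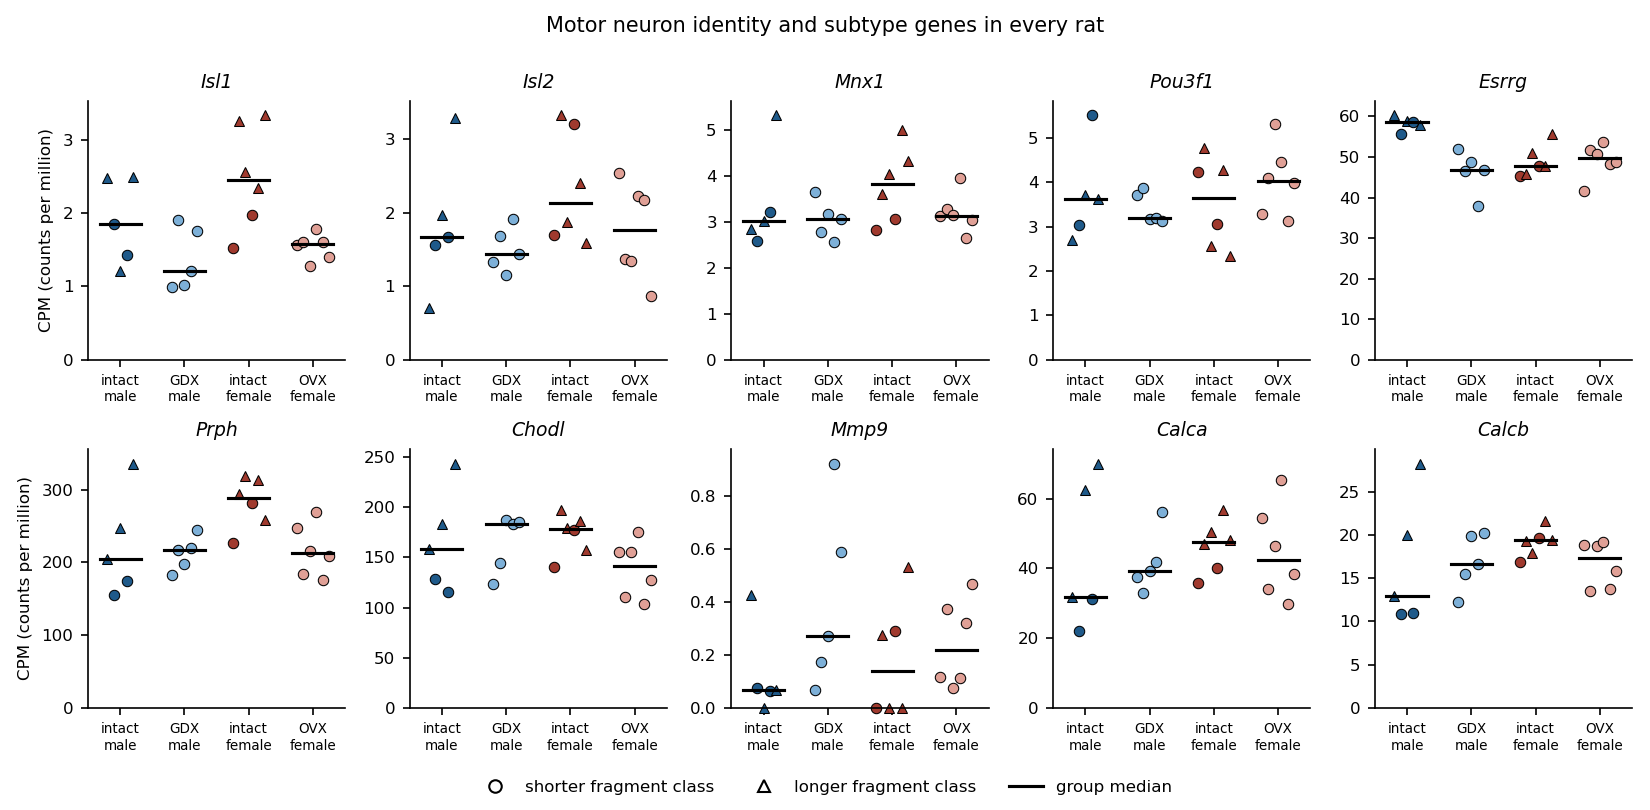
CPM of the 10 genes in every rat, by group (5 intact males, 5 GDX males, 6 intact females, 6 OVX females), with circles for the shorter and triangles for the longer fragment class and a bar at the group median. Intact males lay at 55.8 CPM of Esrrg or more and GDX males at 51.9 CPM or less, whereas the ranges of the other genes overlapped between GDX and intact males.

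Esrrg encodes an orphan nuclear receptor that is abundant in gamma motor neurons and is also found in other neurons. In the intact males it reached 60.3, 55.8, 59.0, 58.6 and 57.9 CPM in rats 1, 2, 3, 5 and 6, a coefficient of variation of 2.84%. In the GDX males it reached 51.9, 46.5, 48.7, 38.0 and 46.9 CPM in rats 1, 2, 4, 5 and 6. Every GDX rat lay below every intact male, and GDX rat 5 lay lowest. Esrrg fell by 0.33 on the log2 scale after GDX (SE 0.07, 95% confidence interval of the log2 fold change -0.47 to -0.18), with an adjusted p of 0.0104 in edgeR's quasi-likelihood test. Ranges of GDX and intact males did not overlap for 7.47% of all genes tested, and among the 9 genes for Esrrg alone.

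The intact females spanned 45.4 to 55.6 CPM of Esrrg with a median of 47.8, and the OVX females 41.6 to 53.7 CPM with a median of 49.7. These female groups overlapped over most of their range, and the log2 fold change after OVX was 0.01 (SE 0.06, 95% confidence interval -0.12 to 0.14), with an adjusted p of 0.971 in edgeR. Ranges of OVX and intact females did not overlap for 0.543% of all genes and for none of the 9. Intact males lay above intact females in all 5 rats, although by a margin of 55.8 against 55.6 CPM between the nearest rats. Esrrg was higher in intact males by 0.26 on the log2 scale (SE 0.05, adjusted p 0.0161 in edgeR). The same lack of overlap between intact males and intact females was met by 2.67% of all genes and by no other gene of the 9.

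In order of their medians, Esrrg ran from intact males (58.6 CPM) over OVX females (49.7 CPM) and intact females (47.8 CPM) to GDX males (46.9 CPM). The last 3 groups overlapped, and the intact males did not overlap with any of them. For intact males and OVX females the share of all genes without overlap is not given here. The difference between the GDX and the OVX responses of Esrrg was -0.34 on the log2 scale (SE 0.10), and it missed the call with an adjusted p of 0.164 in edgeR, where 0.116% of 15562 genes were called. None of the 9 genes was called for this difference in edgeR, where 1810 genes had an unadjusted p under 0.05 and, of the 9, Esrrg alone. In DESeq2 that difference for Esrrg had an adjusted p of 0.0661.

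Fragment class and Esrrg were set side by side in the intact rats. The shorter class (4 rats) spanned 45.4 to 58.6 CPM and the longer class (7 rats) 45.8 to 60.3 CPM, and the ranges covered each other almost fully. The log2 fold change of the longer against the shorter class, with sex in the fit, was 0.07 (SE 0.05, adjusted p 0.787 in edgeR). With fragment class as a term, the GDX log2 fold change was -0.30 (adjusted p 0.0957), and in the rats of the shorter class, where 2 intact males remained, it was -0.30 with an adjusted p of 0.154. The difference between intact males and females was 0.26 with fragment class as a term (adjusted p 0.0137, all 11 intact rats), 0.30 in the shorter class (adjusted p 0.27) and 0.24 in the longer class (adjusted p 0.105). The sex difference had the same direction in both classes, and the GDX difference kept its direction in the shorter class, the only class with GDX rats. In edgeR both calls were kept with class as a term and lost in the fewer rats of a single class.

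**Figure D2:**
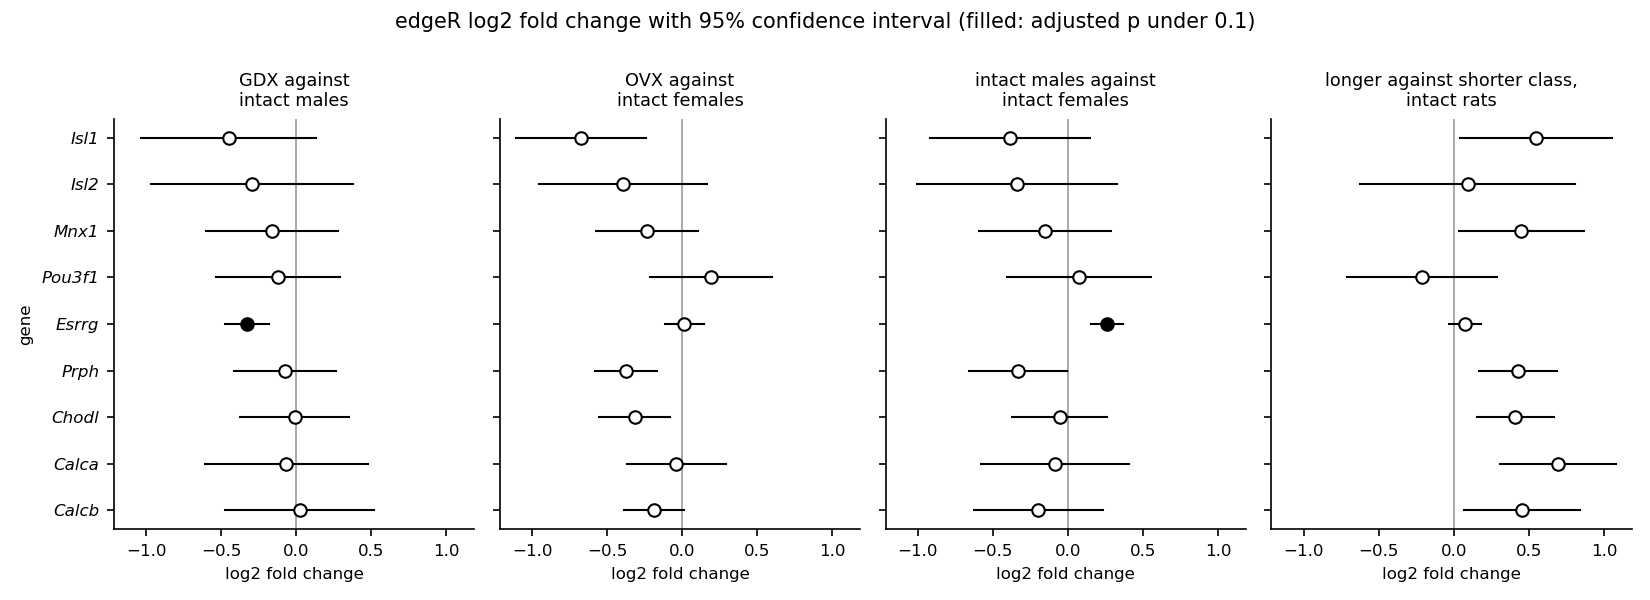
Log2 fold changes of the 9 genes that passed the filter, with 95% confidence intervals from edgeR, in 4 comparisons (points, filled when the adjusted p was under 0.1). Esrrg is the filled point, at -0.33 in GDX against intact males and at 0.26 in intact males against intact females, and 8 of 9 points lie above 0 for the longer against the shorter fragment class.

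The LIM-homeodomain factors Isl1 and Isl2 and the homeodomain factor Mnx1, also known as HB9, specify motor neurons in the embryo and stay on at a low level in the adult. Isl1 was covered by 15 to 47 reads per rat. It stood at 2.48, 1.85, 1.21, 1.42 and 2.49 CPM in intact male rats 1, 2, 3, 5 and 6, and at 0.996, 1.91, 1.01, 1.21 and 1.76 CPM in GDX rats 1, 2, 4, 5 and 6. The male groups overlapped, and the log2 fold change of -0.45 had an SE of 0.27 (adjusted p 0.347 in edgeR). With fragment class as a term it was -0.23 (adjusted p 0.778).

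Intact females spanned 1.52 to 3.33 CPM of Isl1 with a median of 2.45, and OVX females 1.27 to 1.78 CPM with a median of 1.58. The ranges of these groups overlapped because intact female 1, a rat of the shorter class, lay among the OVX females. The log2 fold change after OVX was -0.67 (SE 0.20), the largest in size of the 9 genes in that comparison, with an adjusted p of 0.268 in edgeR. Without intact female 1 it was -0.79, with an adjusted p of 0.0994. With fragment class as a term it shrank to -0.16 (adjusted p 0.921). Among the intact rats the shorter class held 1.42 to 1.97 CPM and the longer class 1.21 to 3.33 CPM, a log2 fold change of 0.55 with an SE of 0.24 (adjusted p 0.6 in edgeR).

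Isl2 spanned 0.709 to 3.28 CPM in intact males, 1.15 to 1.92 in GDX males, 1.59 to 3.32 in intact females and 0.859 to 2.54 in OVX females. With 10 to 50 reads per rat, its spread within groups was wide, and its coefficient of variation reached 50.8% in the intact males. The log2 fold changes of Isl2 were -0.29 after GDX (adjusted p 0.622) and -0.40 after OVX (adjusted p 0.66 in edgeR), and the groups overlapped in both sexes. They were -0.11 (adjusted p 0.929) and -0.44 (adjusted p 0.847) with fragment class as a term. Isl2 was the gene of this trio with the smallest difference between fragment classes, 0.09 (SE 0.34).

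Mnx1 stood at 2.84, 2.59, 3.02, 3.22 and 5.32 CPM in intact male rats 1, 2, 3, 5 and 6, and at 3.65, 2.77, 3.17, 2.56 and 3.07 CPM in GDX rats 1, 2, 4, 5 and 6. Intact male 6 lay far above the other 4 intact males, which fell within the range of the GDX rats. The log2 fold change after GDX was -0.16 (SE 0.21, adjusted p 0.69 in edgeR), and it was 0.06 both without intact male 6 and with fragment class as a term (adjusted p 0.935). In the females Mnx1 spanned 2.81 to 5.01 CPM in intact rats and 2.65 to 3.96 CPM after OVX, a log2 fold change of -0.24 with an SE of 0.16 (adjusted p 0.665), which turned to 0.13 with class as a term (adjusted p 0.919). In the intact rats of the shorter class it ranged from 2.59 to 3.22 CPM and in the longer class from 2.84 to 5.32 CPM, a log2 fold change of 0.45 with an SE of 0.20 (adjusted p 0.6).

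Upstream sequences are shown for Mnx1, Prph, Chodl and Calca because each followed the cholinergic genes among rats, as described below, and has 1 start in the RefSeq promoter table of build GRCr8. That table held 7 of the 10 genes. Pou3f1, Mmp9 and Calcb were not matched, and Esrrg has 4 starts, between which gene counts do not choose. Each window is the 250 bases before the start, read 5′ to 3′ on the gene's strand, and capitals mark matches on either strand to 4 motifs. These are the TATA element TATAAA, the promoter box CCAAT, the core TGACG of the cAMP response element, and the core TAAT bound by many homeodomain factors. Of all 33469 windows of this length, 12.9% held the first, 34.0% the box, 18.2% the cAMP core and 57.0% the homeodomain core. The Mnx1 window (chr4:6541395-6541644, plus strand) held 1 TATA match, 1 CCAAT match and 2 TAAT matches, of which 1 overlapped the CCAAT match.
Mnx1: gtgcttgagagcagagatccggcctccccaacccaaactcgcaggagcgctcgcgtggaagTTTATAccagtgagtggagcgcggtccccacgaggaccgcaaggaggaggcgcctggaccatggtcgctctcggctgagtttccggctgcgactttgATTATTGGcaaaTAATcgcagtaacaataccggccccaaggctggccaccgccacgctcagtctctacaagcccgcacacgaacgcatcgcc
A match describes the letters and not a site in use.

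Pou3f1, also known as SCIP or Oct6, is a POU-domain factor found in phrenic motor neurons and some other motor pools, and also in Schwann cells and oligodendrocyte lineage cells. It spanned 2.69 to 5.51 CPM in intact males, 3.13 to 3.87 in GDX males, 2.35 to 4.78 in intact females and 3.13 to 5.31 in OVX females. All 4 groups overlapped. Its log2 fold changes were -0.12 after GDX (SE 0.19) and 0.19 after OVX (SE 0.19), or -0.33 and 0.14 with fragment class as a term (adjusted p 0.499 and 0.936 in edgeR). It was the gene with the lowest difference between fragment classes, -0.21 (SE 0.23, adjusted p 0.897 in edgeR). Between the sexes of intact rats none of these 4 factors was called, with log2 fold changes of -0.38 for Isl1, -0.34 for Isl2, -0.15 for Mnx1 and 0.07 for Pou3f1 and adjusted p from 0.514 to 0.921.

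Of 13 further motor neuron transcription factors (Lhx, Foxp1, Onecut, Hox, Etv and related genes), 10 passed the filter in each comparison within a sex. None of them was called after GDX or OVX in edgeR, where 13.4% and 0.0335% of all genes were, and their median log2 fold changes were -0.17 and -0.14. Between intact males and intact females, and between the fragment classes, 0 of 10 were called, against 4.01% and 0.0066% of all genes, with medians of 0.10 and 0.03.

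Prph encodes peripherin, a type III intermediate filament of motor neurons and of neurons with peripheral axons. It stood at 205, 156, 248, 174 and 336 CPM in intact male rats 1, 2, 3, 5 and 6. In GDX rats 1, 2, 4, 5 and 6 it stood at 183, 218, 198, 220 and 244 CPM. The GDX rats fell inside the range of the intact males, whose 3 highest rats (6, 3 and 1) were those of the longer class. The log2 fold change was -0.07 (SE 0.16, adjusted p 0.826 in edgeR), and with fragment class as a term it turned to 0.37 (adjusted p 0.196).

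Intact females spanned 227 to 319 CPM of Prph with a median of 288, and OVX females 177 to 269 CPM with a median of 213. The groups overlapped between 227 and 269 CPM. After OVX the log2 fold change was -0.37 (SE 0.10, adjusted p 0.194 in edgeR), and with class as a term it was -0.22 (adjusted p 0.757). It passed the threshold without intact female 1 (-0.43, adjusted p 0.0609) or without OVX female 4 (-0.44, adjusted p 0.09). In the intact rats Prph ranged from 156 to 282 CPM in the shorter and from 205 to 336 CPM in the longer class, a log2 fold change of 0.43 with an SE of 0.12 (adjusted p 0.386). Intact males against intact females gave -0.33 (SE 0.15, adjusted p 0.313), which became -0.52 (adjusted p 0.0393) without intact male 6.

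The Prph window of 250 bases (chr7:132097039-132097288, plus strand, GRCr8 RefSeq) held TATAAA 35 to 30 bases before the start, marked in capitals, and no match to the other 3 motifs.
Prph: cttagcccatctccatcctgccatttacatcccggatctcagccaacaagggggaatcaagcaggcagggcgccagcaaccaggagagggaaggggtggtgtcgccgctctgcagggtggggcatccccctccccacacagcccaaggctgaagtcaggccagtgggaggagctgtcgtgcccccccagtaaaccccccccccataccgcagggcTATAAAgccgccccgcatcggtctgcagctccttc

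Chodl, a C-type lectin of fast motor neurons, and Mmp9, a matrix metalloprotease made by fast-fatigable motor neurons, are used as markers of the fast type. Chodl stood at 159, 129, 183, 115 and 244 CPM in intact male rats 1, 2, 3, 5 and 6, and at 124, 145, 188, 183 and 185 CPM in GDX rats 1, 2, 4, 5 and 6. The GDX rats split into a lower pair (rats 1 and 2) and 3 close, higher values (rats 4, 5 and 6), all within the range of the intact males. Marker lists of other cells, given further on, split the same GDX rats. Summed meningeal CPM was 84.8 and 133 in rats 1 and 2, and 210, 270 and 237 in rats 4, 5 and 6. Summed granulocyte CPM was 1.39 and 1.85, and 14.4, 4.61 and 9.59, in the same order. The part of these cells in the Chodl values was not tested. Its log2 fold change after GDX was -0.01 (SE 0.17, adjusted p 0.982 in edgeR), and 0.43 (adjusted p 0.182) with fragment class as a term.

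In the females Chodl spanned 141 to 198 CPM in intact rats with a median of 178, and 104 to 176 CPM after OVX with a median of 141. These ranges overlapped, and the log2 fold change of -0.32 had an SE of 0.11 (adjusted p 0.334 in edgeR). It was -0.20 with fragment class as a term (adjusted p 0.836). In the intact rats the shorter class held 115 to 177 CPM and the longer class 157 to 244 CPM, a log2 fold change of 0.41 with an SE of 0.12 (adjusted p 0.404).

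The Chodl window of 250 bases (chr11:31140865-31141114, plus strand, GRCr8 RefSeq) held 1 match to TAAT on the other strand, 81 to 78 bases before the start, in capitals.
Chodl: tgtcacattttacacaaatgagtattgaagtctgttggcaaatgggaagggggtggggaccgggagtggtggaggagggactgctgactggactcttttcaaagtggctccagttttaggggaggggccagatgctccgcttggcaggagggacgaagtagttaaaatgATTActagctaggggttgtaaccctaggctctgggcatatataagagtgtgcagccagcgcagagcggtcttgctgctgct

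Mmp9 was near the limit of counting, with 0 to 13 reads per rat and 0 reads in 4 rats (intact male 3 and intact females 1, 3 and 5). It was therefore under the filter on low counts and was not tested. Its levels were 0.425, 0.0741, 0, 0.0619 and 0.0657 CPM in intact male rats 1, 2, 3, 5 and 6, and 0.0664, 0.173, 0.270, 0.923 and 0.587 CPM in GDX rats 1, 2, 4, 5 and 6. In females it spanned 0 to 0.530 CPM in intact and 0.0748 to 0.469 CPM in OVX rats. Granulocytes also make Mmp9, and the summed CPM of 7 granulocyte genes, of which S100a9 was the most abundant, had medians of 1.25 in intact and 4.61 in GDX males, and of 1.27 in intact and 3.03 in OVX females. Ltf of that list had no reads in any rat. The part of these cells in the Mmp9 reads was not tested, and with so few reads Mmp9 was not compared between groups here.

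Among 8 further genes of alpha, gamma, fast or slow motor neurons in the table, 7 passed the filter, and all 7 had log2 fold changes below 0 after both GDX (median -0.21) and OVX (median -0.12). Rbfox3, the neuronal splicing factor NeuN, which alpha motor neurons make and gamma motor neurons largely lack, fell by 0.33 on the log2 scale after GDX (SE 0.08, adjusted p 0.024 in edgeR). It was the single gene of the 7 that was called in that comparison, where 13.4% of all genes were, and none was called after OVX, in intact males against intact females (median 0.04) or between classes (median 0.01). Spp1, the most abundant of them, averaged 260 CPM in intact and 225 CPM in GDX males. Bulk counts do not separate motor neurons from other neurons, and the part of each in the Rbfox3 values was not tested.

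CGRP is the product of Calca, whose transcripts are spliced either to calcitonin or to alpha-CGRP, and of Calcb, which gives beta-CGRP. Counts per gene do not separate the splice forms, and reads shared between these paralogs could not be assigned with certainty, so their values are uncertain to that extent. Calca stood at 31.8, 22.1, 62.5, 31.2 and 70.1 CPM in intact male rats 1, 2, 3, 5 and 6, and at 37.7, 33.0, 39.4, 41.9 and 56.0 CPM in GDX rats 1, 2, 4, 5 and 6. Intact males 3 and 6, both of the longer class, lay above all GDX rats, and the other 3 lay below all of them. The log2 fold change was -0.07 (SE 0.25, adjusted p 0.908 in edgeR), and 0.63 (adjusted p 0.203) with fragment class as a term.

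In females Calca spanned 35.9 to 56.8 CPM in intact and 29.9 to 65.4 CPM in OVX rats, so that the OVX range enclosed the intact range (log2 fold change -0.04, SE 0.16, adjusted p 0.967 in edgeR). With fragment class as a term it turned to 0.25 (adjusted p 0.846). Calcb ran from 10.9 to 28.3 CPM in intact males, 12.2 to 20.3 in GDX males, 16.9 to 21.6 in intact females and 13.6 to 19.2 in OVX females. Its log2 fold changes were 0.02 after GDX (SE 0.23) and -0.19 after OVX (SE 0.09, adjusted p 0.522), and with fragment class as a term 0.63 (adjusted p 0.189) and -0.12 (adjusted p 0.887). Both CGRP genes had higher means in the longer class of the intact rats. Calca ranged from 22.1 to 40.2 CPM in the shorter and 31.8 to 70.1 CPM in the longer class, a log2 fold change of 0.69 with an SE of 0.18 (adjusted p 0.361), and Calcb reached 19.6 CPM in the shorter and 28.3 CPM in the longer class, a log2 fold change of 0.46 with an SE of 0.18 (adjusted p 0.577). Set against intact females, intact males gave for Calca, Calcb and Chodl -0.09, -0.20 and -0.06 (adjusted p 0.903, 0.702 and 0.904).

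The Calca window of 250 bases (chr1:178317530-178317779, minus strand, GRCr8 RefSeq) held 3 matches in capitals, to TAAT at 229 to 226 bases before the start, to the cAMP core at 112 to 108 bases and to the CCAAT box, on the other strand, at 75 to 71 bases. No motif was found in all 4 windows.
Calca: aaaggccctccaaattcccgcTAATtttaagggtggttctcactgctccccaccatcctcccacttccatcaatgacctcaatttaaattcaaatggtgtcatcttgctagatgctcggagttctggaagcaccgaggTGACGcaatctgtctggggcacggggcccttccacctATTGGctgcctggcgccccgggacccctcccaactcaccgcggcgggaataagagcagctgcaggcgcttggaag

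The receptor side was described with 5 genes. CGRP acts on the calcitonin receptor-like receptor (Calcrl) in complex with Ramp1, whereas Calcrl with Ramp2 or Ramp3 binds adrenomedullin, and Crcp encodes an accessory protein of CGRP signalling. Calcrl is abundant in endothelium. After GDX, Calcrl rose by 0.33 on the log2 scale (SE 0.07, adjusted p 0.0163) and Ramp3 by 0.57 (SE 0.19, adjusted p 0.0744) in edgeR, and the other 3 were not called. These are 2 of 5 genes where 13.4% of all genes were called. All 5 had log2 fold changes above 0 (median 0.25). After OVX 0 of 5 were called (median -0.04). Calcrl in intact males against intact females was at -0.28 on the log2 scale (SE 0.06, adjusted p 0.0282), 1 of 5 genes where 4.01% of all genes were called, in a comparison that shares the intact males. Between classes 0 of 5 were called (median 0.02). Meningeal genes, given further on, differed in the same direction as Calcrl and Ramp3 after GDX and in intact males against intact females. Following OVX the median of the meningeal genes was 0.25, against -0.04 for the receptor genes. The part of that tissue in the values of Calcrl and Ramp3 was not tested.

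Between the fragment classes none of the 9 motor neuron genes was called in edgeR, against 0.0066% of 15147 genes (1 gene). There 6 of the 9 had an unadjusted p under 0.05 (Isl1, Mnx1, Prph, Chodl, Calca and Calcb), as had 7.72% of all genes (1170). The median log2 fold change of the 9 was 0.43, against 0.0020 over all genes. With all low-count genes kept in the fit, 210 genes were called, among them Prph (adjusted p 0.000906), Chodl (0.00139), Calca (0.000131) and Calcb (0.0659). DESeq2 called 58 genes, and none of the 9. The log2 fold changes between classes were larger in size than those after GDX and after OVX for Prph, Chodl, Calca, Calcb and Mnx1, and also for Pou3f1, whose class difference was below 0. Each rat gave a single library, so a difference in library preparation and a difference between the rats themselves cannot be told apart.

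Variation among rats of the same group was then compared with the cholinergic genes Chat, Slc18a3 and Slc5a7, which encode choline acetyltransferase, the vesicular acetylcholine transporter and the choline transporter. Their summed CPM had medians of 196 (intact) and 197 (GDX) in males and of 237 (intact) and 191 (OVX) in females, with Slc5a7 the most abundant. After GDX 1 of the 3 was called, where 13.4% of all genes were. This was Slc18a3, lower by 0.43 on the log2 scale (SE 0.13, adjusted p 0.0542 in edgeR). Chat was at -0.27 (SE 0.10, adjusted p 0.11) and Slc5a7 at 0.05 (SE 0.12, adjusted p 0.84 in edgeR), and the list's median was -0.27. Slc18a3 was higher in the longer class of the intact rats by 0.38 (SE 0.10, adjusted p 0.361 in edgeR), and all GDX rats were in the shorter class. Its GDX value with fragment class as a term is not given here. After OVX 0 of 3 were called (median -0.39), in intact males against intact females 0 of 3 (median -0.10), and between classes 0 of 3 (median 0.37).

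Group means were removed from the log2 CPM of each gene and from the mean log2 CPM of the 3 cholinergic genes, and Pearson's r and Spearman's rho were taken over the 22 rats with permutation tests within groups (two-sided, 100000 draws, 9 relations in the family). Prph followed the cholinergic genes most closely, with r = 0.89 (permutation p 1e-05, the smallest that the draws can give, adjusted 9e-05) and rho = 0.87 (adjusted p 9e-05). Without the 2 rats farthest from the median of the cholinergic genes r was 0.85, and within the shorter and longer classes it was 0.85 and 0.97. Calca followed with r = 0.81 (permutation p 4e-05, adjusted 0.00018), rho = 0.84 (permutation p 8e-05, adjusted 0.00036), 0.78 without the 2 farthest rats, and 0.77 and 0.72 within the classes. These genes and the cholinergic genes come from the same libraries and share their depth and scaling.

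Chodl had r = 0.75 (permutation p 0.00042, adjusted 0.00126) and rho = 0.67 (permutation p 0.00215, adjusted 0.00511), with 0.65 without the 2 farthest rats and 0.61 and 0.91 within the shorter and longer classes. Mnx1 had r = 0.72 (permutation p 0.00115, adjusted 0.00207) and rho = 0.65 (permutation p 0.00284, adjusted 0.00511), with 0.55, 0.57 and 0.69 in the same order. Calcb had r = 0.67 (permutation p 0.00111, adjusted 0.00207) and rho = 0.64 (permutation p 0.00282, adjusted 0.00511), with 0.57, 0.54 and 0.76. For 5 of the 9 genes the relation held with an adjusted p under 0.05. Of 15558 other genes, 0.116% had an r of at least the same size as Prph, 0.373% as Calca, 0.887% as Chodl, 1.24% as Mnx1 and 1.80% as Calcb, which is 18 genes for Prph and 280 for Calcb. In the 15 rats of the shorter class taken alone it held for Prph and Calca, while Mnx1, Chodl and Calcb had adjusted permutation p of 0.0855, 0.102 and 0.102.

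The other 4 genes did not follow the cholinergic genes beyond the spread once group means were removed. Isl1 had r = 0.40 (permutation p 0.0852, adjusted 0.128) and rho = 0.37 (permutation p 0.0955), and Isl2 r = 0.37 (permutation p 0.168, adjusted 0.217) and rho = 0.39 (permutation p 0.121). Both dropped to 0.15 without the 2 farthest rats. With group means kept in, r was 0.61 for Isl1 (adjusted permutation p 0.00415) and 0.46 for Isl2 (adjusted permutation p 0.0371). For these values rats were permuted across the groups, so differences between groups and classes enter them. Esrrg had r = 0.13 (permutation p 0.555, adjusted 0.624) and rho = 0.14 (permutation p 0.547), and Pou3f1 r = 0.03 (permutation p 0.902, adjusted 0.902) and rho = 0.06 (permutation p 0.805). Within the shorter and longer classes r was 0.26 and 0.02 for Isl1, 0.22 and 0.79 for Isl2, 0.12 and -0.41 for Esrrg, and 0.14 and 0.31 for Pou3f1.

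**Figure D3:**
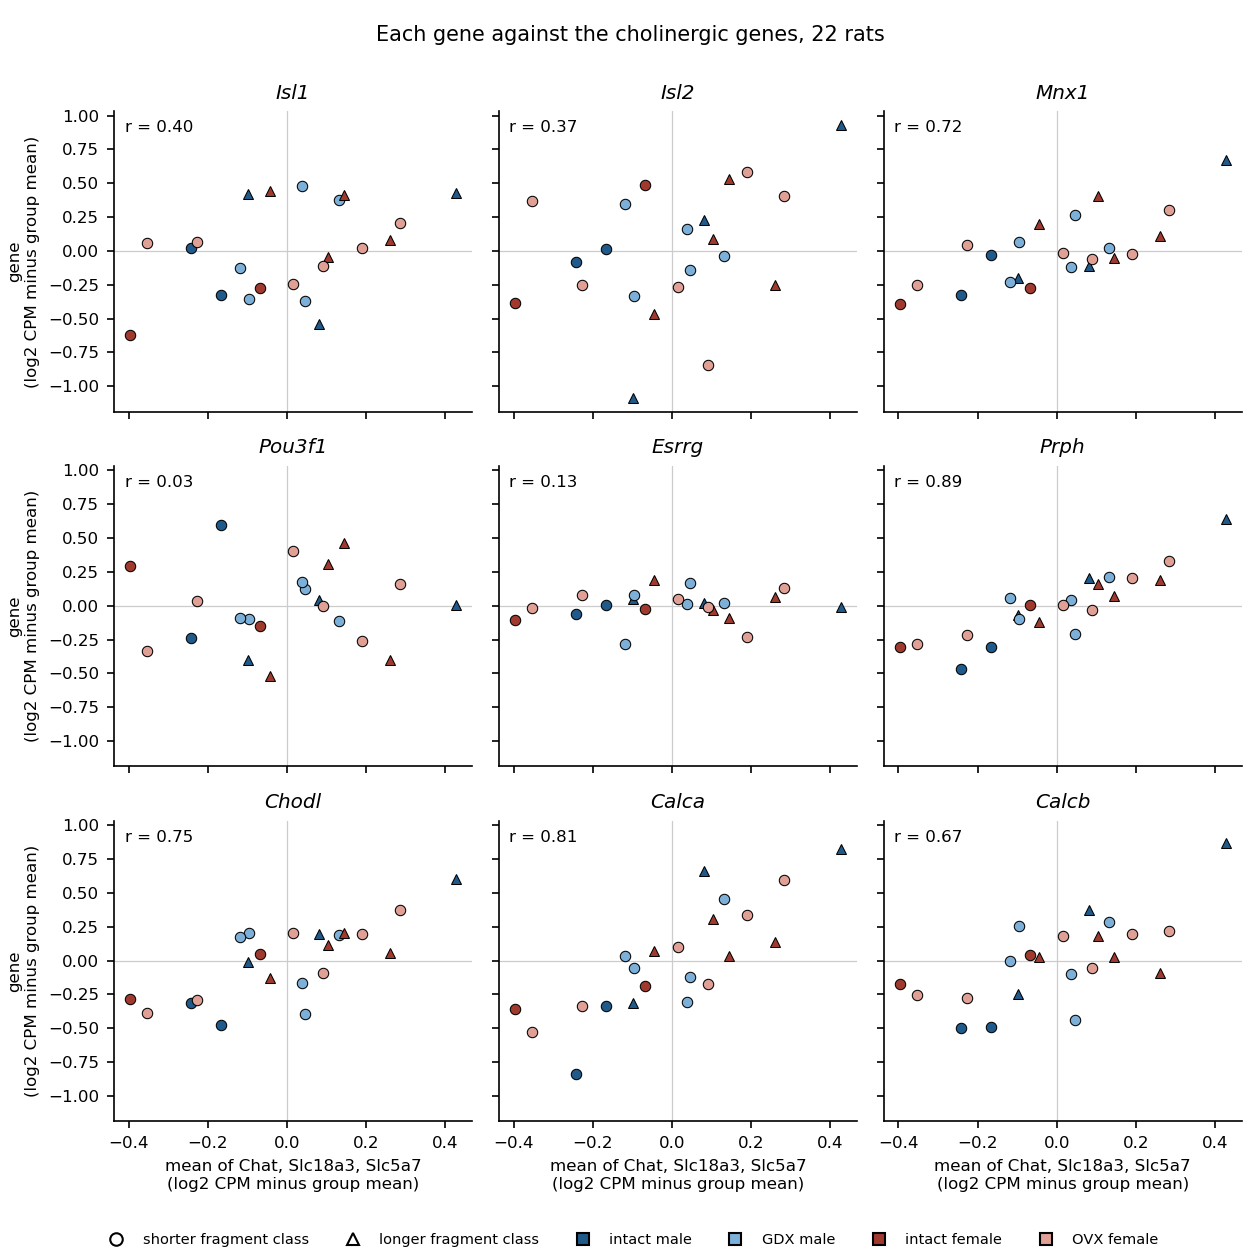
Log2 CPM of 9 genes against the mean log2 CPM of Chat, Slc18a3 and Slc5a7 in 22 rats, both minus their group mean, with colours for the groups and circles and triangles for the shorter and longer fragment classes. Points rise along the diagonal for Prph (r = 0.89) and Calca (r = 0.81) and form a flat or round cloud for Esrrg (r = 0.13) and Pou3f1 (r = 0.03).

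Pairs of the 9 genes were compared in the same way, and 8 of 36 pairs had an adjusted p under 0.05 for r. The share of all gene pairs with such an r is not given here, so this count does not set the 9 genes apart. Prph, Calca, Chodl and Calcb formed a block in which all 6 pairs had r between 0.83 and 0.91. Prph and Calca had r = 0.91 (permutation p 1e-05, adjusted 0.00012) and rho = 0.90 (permutation p 3e-05, adjusted 0.00054), r = 0.86 without the 2 rats farthest in Prph, and 0.87 and 0.82 within the shorter and longer classes. Chodl and Calcb had r = 0.91 (permutation p 1e-05, adjusted 0.00012) and rho = 0.88 (permutation p 3e-05, adjusted 0.00054), r = 0.86 without the 2 rats farthest in Chodl, and 0.93 and 0.85 within the classes. Intact male 6 was the highest intact male for all 4 of these genes.

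Calca and Calcb, the paralogs, had r = 0.86 (permutation p 5e-05, adjusted 0.00036) and rho = 0.86 (permutation p 9e-05, adjusted 0.00108), r = 0.80 without the 2 rats farthest in Calca, and 0.72 and 0.93 within the classes. Mnx1 joined Calca with r = 0.67 (permutation p 0.00092, adjusted 0.00473) and rho = 0.65 (permutation p 0.00141, adjusted 0.00725), r = 0.54 without the 2 rats farthest in Mnx1, and 0.56 and 0.69 within the classes. Mnx1 and Prph had r = 0.63 (permutation p 0.0109, adjusted 0.0489) but rho = 0.44 (permutation p 0.058, adjusted 0.188), and r dropped to 0.39 without the 2 rats farthest in Mnx1, so that this relation rests on those rats. Mnx1 and Esrrg were related by rank (rho = 0.56, permutation p 0.00846, adjusted 0.0381) but not by r (0.43, permutation p 0.0217, adjusted 0.0869), with r = 0.65 without the 2 rats farthest in Mnx1, and 0.68 and -0.06 within the classes. The LIM factors Isl1 and Isl2 were not related to each other beyond the spread (r = 0.11, adjusted permutation p 0.852; rho adjusted permutation p 0.77).

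**Figure D4:**
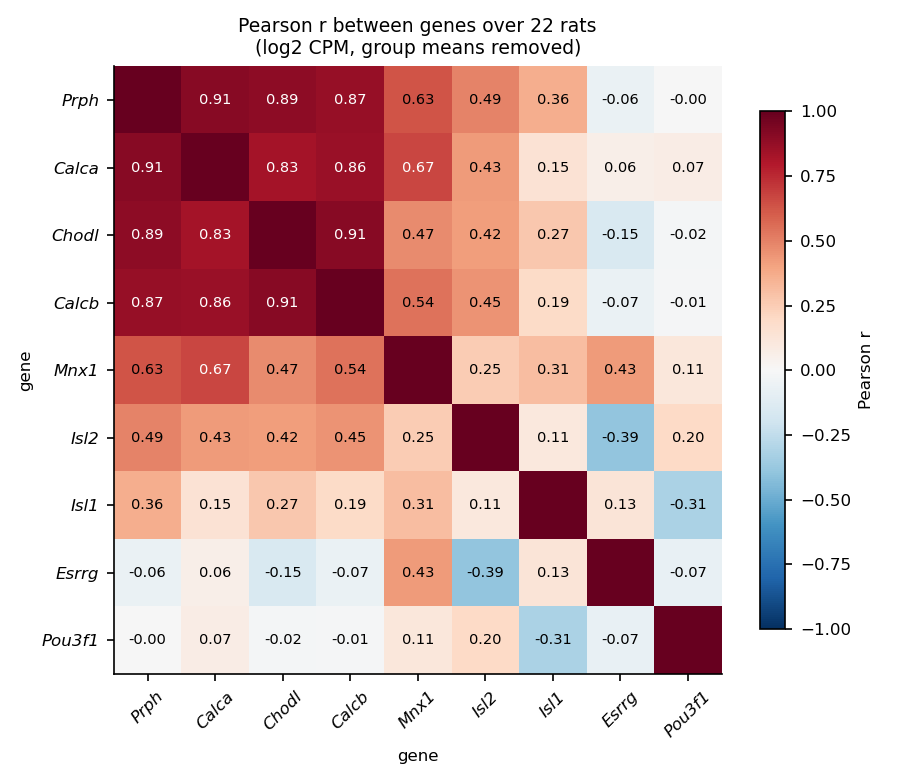
Pearson r between 9 genes over 22 rats, from log2 CPM with group means removed, as a colour scale from -1 to 1 with the value in each cell. Prph, Calca, Chodl and Calcb form a block with r from 0.83 to 0.91, and Esrrg and Pou3f1 lie near 0 against them.

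Across the 15561 other genes that passed the filter over 22 rats, the profiles most like each gene were listed by the same group-centred r, as a description. For Prph they were Nefl (0.93), a neurofilament gene, AABR07006480.1 (0.93) and Stmn2 (0.92), a neuronal microtubule regulator. For Chodl they were Anxa2 (0.96), Lcp1 (0.95) and Hebp2 (0.92). For Calca they were Lcp1 (0.91), Prph (0.91) and Anxa2 (0.89), and for Calcb Gabra2 (0.91), Anxa2 (0.91) and Chodl (0.91). Chat ranked 121 for Prph, 169 for Mnx1, 210 for Calca, 694 for Chodl, 1704 for Calcb, 1743 for Isl1, 2364 for Isl2, 5053 for Esrrg and 5359 for Pou3f1.

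For Mnx1 the closest were Stat3 (0.86), Tns1 (0.84) and Efhd1 (0.81). The remaining genes had looser neighbours. They were Castor1 (0.79), Esyt1 (0.75) and Cldn10 (0.73) for Isl1, Retsat (0.79), Ccdc12 (0.74) and Mpi (0.73) for Isl2, Rassf5 (0.78), Artn (0.71) and Pianp (0.70) for Esrrg, and Mks1 (0.72), Gbp4 (0.69) and LOC100911068 (0.67) for Pou3f1.

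Motor axon and growth factor receptor genes (Nefl, Nefm, Nefh, Ret, Tns1 and Uts2) were counted alongside Prph. All 6 had log2 fold changes below 0 after GDX (median -0.24) and after OVX (median -0.27), and all 6 were above 0 for the longer against the shorter class (median 0.28). The median in intact males against intact females was -0.04 and 0 of 6 were called. Nefh, the heavy neurofilament subunit, fell by 0.29 on the log2 scale after GDX (SE 0.10, adjusted p 0.0825 in edgeR), 1 of 6 genes where 13.4% of all genes were called. It was higher in the longer class of the intact rats by 0.30 (SE 0.08, adjusted p 0.361 in edgeR), and all GDX rats were in the shorter class. The GDX value of Nefh with fragment class as a term is not given here. No other gene of the list was called in any of these comparisons. Nefm was the most abundant, with a mean of 5964 CPM in intact males.

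Isl1, Isl2, Prph, Calca and Calcb are also made by sensory neurons of the dorsal root ganglia, which are attached to the cord by roots. Of 9 sensory ganglion genes, Mrgprd had no reads in any rat, Prdm12 had 0 to 4 reads, Scn10a and Scn11a 0 to 9 reads per rat, and 4 passed the filter in each comparison within a sex. Their summed CPM had medians of 11.6 (intact) and 10.6 (GDX) in males and of 13.1 (intact) and 9.75 (OVX) in females, and Avil was the most abundant. None was called after GDX (median log2 fold change -0.16), after OVX (-0.18), in intact males against intact females (-0.02) or between classes (-0.11). The shares of all genes called in these comparisons were 13.4%, 0.0335%, 4.01% and 0.0066%, so that 0 of 4 does not set this list apart.

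Relations to the mean log2 CPM of the sensory ganglion genes were negative for Isl2 (r = -0.52, permutation p 0.0154, adjusted 0.0461), Prph (r = -0.51, permutation p 0.0107, adjusted 0.0461) and Calcb (r = -0.47, permutation p 0.0152, adjusted 0.0461) over 9 relations. Of 15556 other genes, 4.33%, 4.58% and 7.59% had an r of at least the same size. By rank they were -0.51, -0.53 and -0.44, with adjusted permutation p of 0.115, 0.115 and 0.121. Without the 2 farthest rats r was -0.44, -0.43 and -0.45, and within the shorter and longer classes -0.45 and -0.76 for Isl2, -0.50 and -0.72 for Prph, and -0.50 and -0.56 for Calcb. With a prior count of 0.5 in place of 2, none of the 9 relations held (adjusted permutation p 0.198 for these 3 genes). The other 6 genes had adjusted permutation p from 0.053 (Chodl, r = -0.48) to 0.993 (Mnx1 and Pou3f1).

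Markers of other cells were counted in the same comparisons, because the dissected piece can carry meninges. Of 7 meningeal genes, 6 passed the filter and all 6 rose after GDX, where 13.4% of all genes were called (median log2 fold change 1.55), with Col1a1, the most abundant, at 1.81 (SE 0.35, adjusted p 0.00848 in edgeR). Their summed CPM was 34.9 to 91.0 (intact) and 84.8 to 270 (GDX) in males, and 71.9 to 213 (intact) and 129 to 232 (OVX) in females. After OVX 0 of 6 were called (median 0.25), between classes 0 of 6 (median 0.05), and in intact males against intact females 4 of 6 were called with log2 fold changes below 0 (median -1.28), where 4.01% of all genes were called. Intact males, the group in which Esrrg stood apart, thus had the lowest median of the summed meningeal list (66.9 CPM), and the part of this tissue in the values of Esrrg was not tested.

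**Figure D5:**
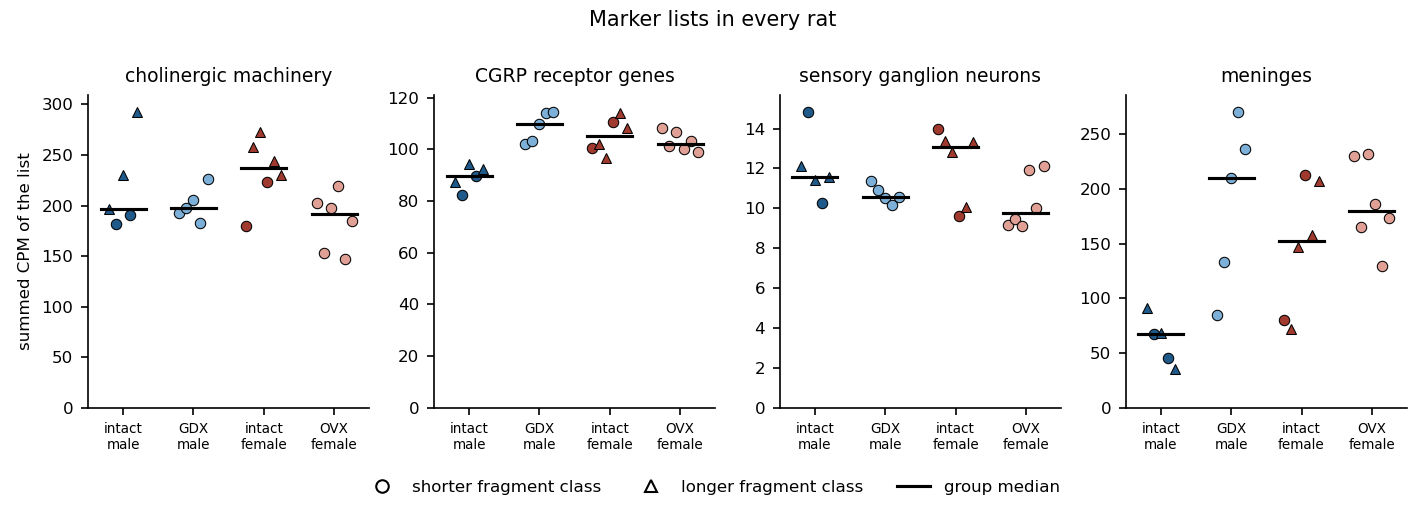
Summed CPM of 4 marker lists in every rat, by group, with circles for the shorter and triangles for the longer fragment class and a bar at the median. Intact males have the lowest median of the meningeal list (66.9 CPM), and the cholinergic list is highest in intact male 6 (292 CPM).

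Of 7 genes of ventral interneurons 5 passed the filter, and En1, a homeodomain factor of inhibitory interneurons, fell by 0.58 on the log2 scale after GDX (SE 0.14, adjusted p 0.0231 in edgeR), 1 of 5 genes where 13.4% of all genes were called. Of the 5 genes 3 had log2 fold changes below 0 after GDX and 2 above, among them Foxp2, the most abundant, at 0.23. No other gene of that list was called, and the medians were -0.41 after GDX, -0.02 after OVX, 0.08 in intact males against intact females and 0.01 between classes. Of 7 dorsal horn genes 3 passed the filter in the males and 2 in the females, and 0 were called in any comparison (medians -0.01 after GDX, -0.05 after OVX, 0.04 between intact males and females, and -0.16 between classes), which with 2 or 3 genes does not set the list apart from the 13.4%, 0.0335%, 4.01% and 0.0066% of all genes called there. Gpr83 was the most abundant, and the summed CPM of the list had medians of 6.74 in intact and 6.95 in GDX males, and of 6.99 in intact and 6.35 in OVX females. All 4 genes of oligodendrocyte precursors passed the filter, and Pdgfra alone was called after GDX, where it rose by 0.23 (SE 0.07, adjusted p 0.0586), 1 of 4 genes against the same 13.4%. Of the 4, 2 had log2 fold changes below 0 after GDX (median 0.0041), and the median after OVX was 0.10.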

How the data were processed

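The values used are the raw read counts per gene deposited by the authors, whose processing notes name FastQC, TopHat2 2.0.13 on genome build Rnor_6.0, Subread for counting and edgeR. The methods of the paper name Trimmomatic and Hisat2 in place of TopHat2, and a stranded SMARTer Pico kit where the sample labels name TruSeq. Which applies could not be settled here. The strand and multi-mapping settings of the counting are not given in the sources used here, so reads shared by the paralogs Calca and Calcb are uncertain.

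Each gene was found by its symbol, the text after the first "_" of the gene name in the count table. The 10 genes and the 12 marker lists were chosen with earlier results of these data known. Of 82 list genes 81 were in the table, and Gfra1 was not. Of the 12 lists 1 is not reported here.

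Counts were filtered with filterByExpr and scaled with TMM factors. Each comparison within a sex was fitted alone with edgeR's quasi-likelihood test and Benjamini-Hochberg adjustment, and genes with an adjusted p under 0.1 were called. The class comparison had sex as a term, and the difference between responses was fitted over all 22 rats. Log2 CPM used a prior count of 2. Correlations removed group means and were tested with 100000 permutations within groups. In the setting without centring, rats were permuted across the groups. The shares of all genes as close to a list mean were added after the results were seen. The code was tried on simulated data first. Alternatives were DESeq2, other filters, fragment class as a term, rats of 1 class, all rats in a single fit, replicate number as a block, other correlation settings and leaving out each rat. Tools were R 4.3.3, edgeR 4.0.16 and DESeq2 1.42.0.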

Additional observations from a re-analysis of the deposited data

Results flagged for a closer look

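The CPM of each of the 10 genes, and the mean log2 CPM of the cholinergic and of the sensory ganglion genes, were checked in each of the 4 groups with Dixon's rule for a value far from the others of its group. Of 48 groups checked, 2 held such a value. Chance alone flags about 1 in 20 groups.

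Mnx1 in intact male 6 was 5.31806 CPM, against 2.59228 to 3.21723 CPM in the other 4 intact males (Dixon ratio 0.770726). The rat was kept. Without it the GDX log2 fold change of Mnx1 was 0.0581153 in place of -0.162207.

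Mmp9 in intact male 1 was 0.425417 CPM, from 6 reads, against 0 to 0.074065 CPM in the other 4 intact males (Dixon ratio 0.8259). Mmp9 was under the filter on low counts and was not tested.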

How the results depend on the processing

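In GDX against intact males, 1995 genes were called. With fragment class as a term 796 were called, in rats of the shorter class 440, with the replicate block 1274, and by an unadjusted p under 0.05 3549. Leaving out 1 rat gave 1202 to 2446. With class as a term the log2 fold change turned to the other side of 0 for Mnx1 (0.062291), Prph (0.365157), Chodl (0.433868) and Calca (0.633657), and in the shorter class likewise (0.0641614, 0.366119, 0.435265 and 0.634895). Esrrg kept its direction (-0.302031 and -0.300436) but its adjusted p in the shorter class was 0.154.

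In OVX against intact females, 5 genes were called. DESeq2 called 174, a fit with no filter on low counts 11, class as a term 3, all 22 rats in 1 fit 9, the replicate block 0, and an unadjusted p under 0.05 gave 1516. Leaving out 1 rat gave 0 to 113. With class as a term Mnx1 was 0.134367 and Calca 0.249504, and in the shorter class 0.129399 and 0.244567, each on the other side of 0. Isl1 was called without intact female 1, and Prph without intact female 1 or OVX female 4.

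In intact males against intact females, 599 genes were called, with 34 in the shorter class, 348 in the longer class, 2317 by an unadjusted p under 0.05, and 352 to 777 when 1 rat was left out. In the longer class Chodl (0.122273), Pou3f1 (-0.0623689), Calca (0.118668) and Calcb (0.0709092) changed direction. Esrrg was 0.297743 in the shorter class (adjusted p 0.27) and 0.243 in the longer class (adjusted p 0.105). Prph was called without intact male 6.

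Between the fragment classes 1 gene was called, with 58 in DESeq2, 210 with no filter, 1170 by an unadjusted p under 0.05, and 0 to 2 when 1 rat was left out. With no filter Prph (0.42512), Chodl (0.405987), Calca (0.689871) and Calcb (0.451743) were called.

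For the difference between the GDX and OVX responses 18 genes were called, with 243 in DESeq2, 33 with no filter, 6 with a filter at 1 CPM, 6 with class as a term, 5 in the shorter class, 1810 by an unadjusted p under 0.05, and 1 to 275 when 1 rat was left out. In the shorter class Isl1 (-0.0678832), Mnx1 (-0.0659902) and Calca (0.38999) changed direction. Esrrg passed the threshold in DESeq2 (-0.338675, adjusted p 0.0661) and without GDX male 1 (adjusted p 0.0787).

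With the replicate block, GDX gave log2 fold changes of 0.0458626 for Prph, 0.0153883 for Chodl and 0.209514 for Calca, on the other side of 0. Rats of the same number do not pair between groups. Correlations of rats with the same number ran from -0.0769121 to 0.0308715, and no rat correlated best with its own number.

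When 1 rat was left out, these log2 fold changes ran across 0. In GDX against intact males they were Isl2 -0.49865 to 0.0241049, Mnx1 -0.24438 to 0.0581153, Prph -0.180737 to 0.117359, Chodl -0.117802 to 0.168613, Pou3f1 -0.217637 to 0.0691944, Calca -0.233284 to 0.173254 and Calcb -0.101897 to 0.304135. In OVX against intact females they were Esrrg -0.0144762 to 0.057701 and Calca -0.179853 to 0.0513561. In intact males against intact females they were Chodl -0.235923 to 0.0510308, Pou3f1 -0.119171 to 0.175219 and Calca -0.330005 to 0.0775198. Between classes it was Isl2, -0.152767 to 0.36038. For the difference between responses they were Isl2 -0.0945219 to 0.428763, Mnx1 -0.0150412 to 0.300232 and Calca -0.189983 to 0.21702.

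Of 9 relations to the cholinergic genes 5 held, and 2 in the shorter class alone. Without centring within groups 7 held, Isl1 (r = 0.608453) and Isl2 (r = 0.464505) among them, and Pou3f1 had r = -0.0976615. Of 9 relations to the sensory ganglion genes 3 held, and 0 with a prior count of 0.5, 0 in the shorter class and 0 without centring. The cause of these changes was not tested.

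Groups of 5 or 6 rats limit the size of difference that is detectable. All rats without gonads had libraries of the shorter class, so class is adjusted for through 2 intact males and 2 intact females alone. Isl1, Isl2, Mnx1 and Pou3f1 rest on few reads per rat, and Mmp9 was not tested. Bulk tissue does not give values per motor neuron, and motor neurons of segments C3 to C6 include other pools beside the phrenic pool. Comparisons with intact rats share those rats. Protein was not analysed here, and no other data set was used here.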
